A study of Mus musculus with 6 samples.

Results

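CXCR4 and 9 genes whose products carry or switch off its signal were followed in whole bone marrow of mice given NOX-A12. They were Cxcr4 itself, the G protein subunit gene Gnai2, the arrestin genes Arrb1 and Arrb2, the kinase gene Grk6, and the RGS genes Rgs1, Rgs2, Rgs10, Rgs16 and Rgs18. Membership was set by gene symbol: every probe set whose platform annotation names 1 of these symbols and no other was taken, which gave 20 of the 45037 probe sets on the array and 10 of 18193 genes. The compared groups were 3 mice that received NOX-A12, a mirror-image oligonucleotide that binds the chemokine CXCL12, and 3 untreated mice. All 6 mice were SCID/Bg, a strain whose scid and beige mutations leave it without mature T and B lymphocytes and with impaired natural killer cells. A single Affymetrix Mouse Genome 430 2.0 array was used per animal, and the files give 1 intensity per probe set. The sources used here give neither dose, schedule nor age, and the controls are described only as untreated.

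CXCR4 is a seven-pass receptor on blood-forming cells and most leukocytes. When CXCL12 binds, the receptor activates inhibitory G proteins, and the cell is drawn towards the chemokine and held in the marrow. The signal ends in steps. RGS proteins speed the hydrolysis of GTP on the alpha subunit, and kinases, GRK6 among them, phosphorylate the receptor's tail. Beta-arrestins bind the phosphorylated tail, uncouple the G protein and take the receptor inside.

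The sequence upstream of the start site was read for Cxcr4, the receptor of the chemokine that NOX-A12 binds, for Rgs2, the member with the most marked difference, and for Rgs16, which was near background. These are the 250 bases before the annotated start in RefSeq's table for GRCm38.p6, and capitals mark matches to the motifs named below. The Cxcr4 window is chr1:128592300-128592549, minus strand. The Rgs2 window is chr1:144004150-144004399, minus strand. The Rgs16 window is chr1:153740103-153740352, plus strand.
Cxcr4: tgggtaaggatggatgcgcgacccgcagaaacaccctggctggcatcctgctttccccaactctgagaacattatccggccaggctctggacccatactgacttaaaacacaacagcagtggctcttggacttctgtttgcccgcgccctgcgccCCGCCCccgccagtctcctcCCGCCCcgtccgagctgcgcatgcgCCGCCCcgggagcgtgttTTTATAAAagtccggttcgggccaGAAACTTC
Rgs2: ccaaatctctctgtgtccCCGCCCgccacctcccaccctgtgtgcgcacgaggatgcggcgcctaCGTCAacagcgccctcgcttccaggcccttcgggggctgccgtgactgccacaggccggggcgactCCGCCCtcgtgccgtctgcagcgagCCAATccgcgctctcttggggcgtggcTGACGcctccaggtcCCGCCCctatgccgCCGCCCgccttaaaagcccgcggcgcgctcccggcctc
Rgs16: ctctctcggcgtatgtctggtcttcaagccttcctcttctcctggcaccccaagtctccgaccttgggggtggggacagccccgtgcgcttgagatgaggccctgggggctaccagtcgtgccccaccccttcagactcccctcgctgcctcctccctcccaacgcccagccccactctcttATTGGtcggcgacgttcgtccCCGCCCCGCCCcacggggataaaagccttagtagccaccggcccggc

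The table held an upstream sequence for 5 of the 10 members, the ones not printed being those of Rgs10 and Grk6. Both strands were searched for the TATA box (TATAAA), the CCAAT box (CCAAT), the GC box (GGGCGG), the cyclic AMP response half-site (TGACG), the E-box (CACGTG) and the core of the heat-shock element (GAANNTTC). The Cxcr4 window held 3 GC boxes, 1 heat-shock core, and TATAAA on both strands at overlapping positions, 30 and 32 bases before the start. The Rgs2 window held 4 GC boxes, 1 CCAAT box and 2 cyclic AMP half-sites, at 185 and 67 bases before the start. The Rgs16 window held 1 CCAAT box and 2 GC boxes that share 1 base. Among windows of the same length from 27025 genes, 1 per gene, 32.9% held a GC box, 34.5% a CCAAT box, 17.9% a cyclic AMP half-site, 13% a TATA box, 6.78% a heat-shock core and 6.05% an E-box. GC content was 61.2% for Cxcr4, 72.4% for Rgs2 and 66.4% for Rgs16, against a median of 52% over all windows. A match is a string of letters in the window and was not tested as a binding site.

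Some facts about the arrays bear on every value. Median intensity lay between 44.8 and 45.6 on the 6 arrays, and their number limits the precision. The array of untreated mouse 3 stood apart: its Pearson correlation with the others, over probe sets that are no replicates, was 0.982 to 0.985, whereas the other 5 correlated at 0.991 to 0.994. It held 851 probe sets over 2-fold away from the rest, and the other arrays 44 to 67 each. Member results are therefore also given without this mouse. Summed intensity of 8 neutrophil markers was 74066 to 76509 in NOX-A12 marrow and 72068 to 76954 in untreated marrow. Of 7 measured T and natural killer markers, 3 lay below the median intensity of the array, namely Cd3e, Cd4 and Cd8a. The others, the T-cell marker Cd3g among them, did not.

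Cxcr4 was bright and nearly the same in every mouse. Its single probe set (1448710_at) read 1559, 1625 and 1578 in the NOX-A12 mice, against 1434, 1614 and 1625 in the untreated mice. The groups overlapped, and the highest array was only 1.13 times the lowest. Means were 1587 ± 34.0 in NOX-A12 marrow and 1558 ± 107 in untreated marrow (SD, n = 3 each). The log2 change, taken here and throughout as NOX-A12 minus untreated after log2(intensity + 16), was 0.03 ± 0.09 (SE), with a 95% interval from -0.19 to 0.25. As a ratio the interval runs from 0.877 to 1.19, so a larger difference in either direction lies outside it. In limma's test over all probe sets the adjusted p was 0.983. The change was 0.06 ± 0.10 without untreated mouse 3 and -0.03 without untreated mouse 1.

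**Figure D1:**
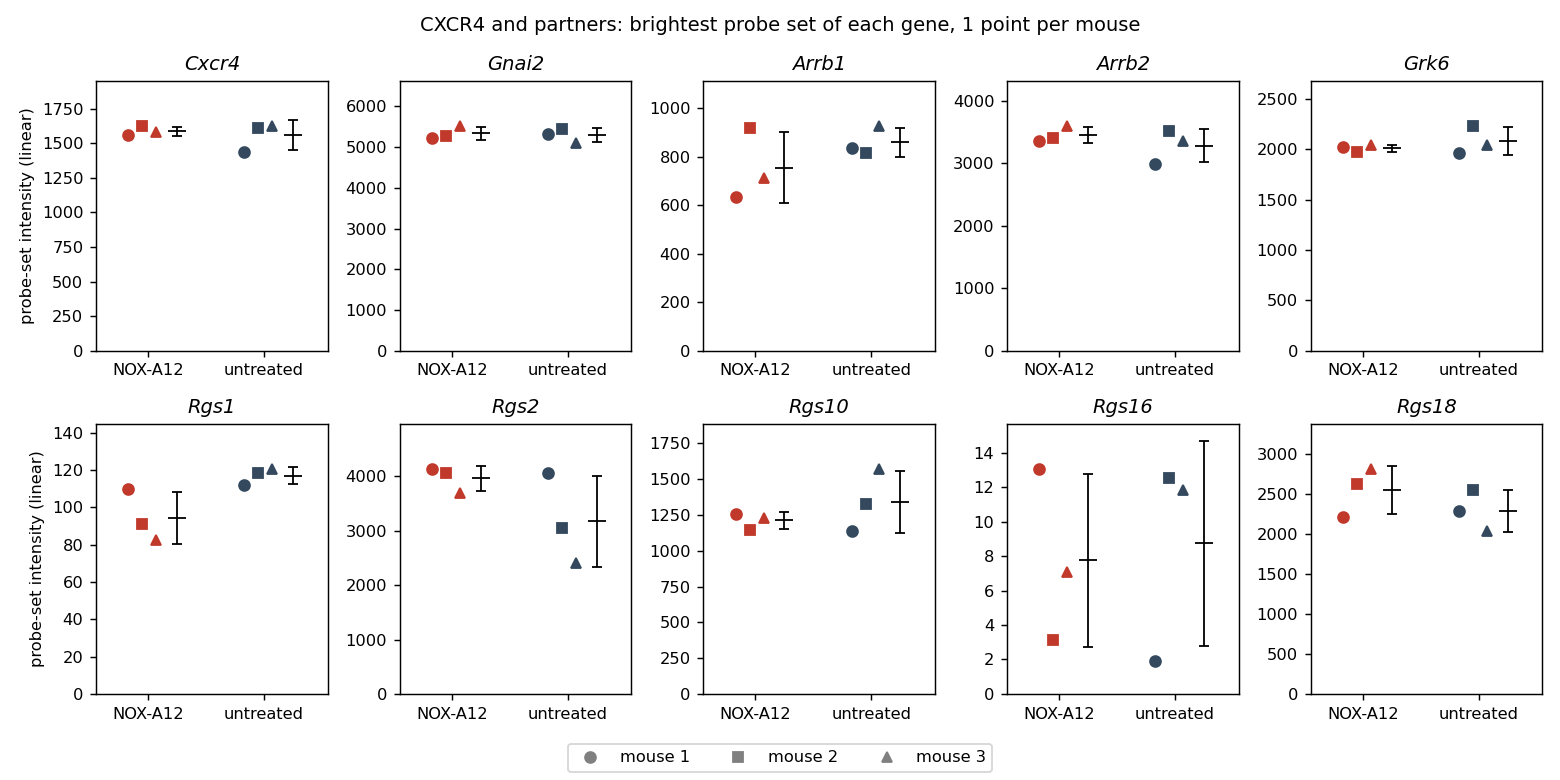
Intensity on a linear scale for the brightest probe set of each of the 10 genes, 1 point per mouse, with NOX-A12 mice left and untreated mice right of each panel; the bars beside the points give mean and SD (n = 3), and equal mouse numbers in the groups are different animals. Cxcr4, Gnai2 and Grk6 sit in narrow bands, the Rgs1 points of the groups do not overlap, and Rgs16 stays below 14 in every mouse.

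Gnai2 encodes the main inhibitory G protein alpha subunit of leukocytes, through which CXCR4 signals. The brightest probe set (1435652_a_at) read 5219, 5273 and 5519 in NOX-A12 mice, against 5326, 5444 and 5106 in untreated mice. The groups overlapped, the highest array was 1.08 times the lowest, and the change was 0.01 ± 0.09. Its other probe set (1419449_a_at) read 1644, 1908 and 1677 in NOX-A12 mice, against 1788, 1696 and 643 in untreated mice. Only untreated mouse 3 was low there, at a log2 difference of -1.38 from the median of the other 5 arrays, while the same difference at the brightest probe set was -0.06. The change at this probe set was 0.47 ± 0.36 with all mice and 0.00 ± 0.11 without untreated mouse 3.

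Grk6, which encodes a kinase that marks the receptor for arrestin, repeated this split among its 3 probe sets. The brightest (1437436_s_at) read 2022, 1970 and 2038 in NOX-A12 mice, against 1958, 2231 and 2044 in untreated mice, a change of -0.05 ± 0.09. The next (1451672_at) gave 0.05 ± 0.10. At the dimmest (1450480_a_at) the NOX-A12 mice read 53.9, 65.0 and 61.6, and the untreated mice 59.2, 72.0 and 26.6. Untreated mouse 3 alone was low at that probe set, and the change was 0.21 ± 0.25 with it and -0.10 ± 0.12 without it. Groups overlapped at all 3 probe sets, and the sign of the Grk6 change depended on the probe set.

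The arrestin genes gave values on opposite sides of 0. Arrb1 (1460444_at) read 635, 918 and 713 in NOX-A12 mice, against 838, 815 and 927 in untreated mice. Of the NOX-A12 mice, 2 lay below every untreated mouse, while NOX-A12 mouse 2 lay among the untreated values. The change was -0.20 ± 0.15, and leaving out 1 mouse at a time moved it between -0.34 (without NOX-A12 mouse 2) and -0.08 (without NOX-A12 mouse 1). Arrb2 at its brightest probe set (1426239_s_at) read 3364, 3402 and 3598 in NOX-A12 mice, against 2990, 3516 and 3351 in untreated mice, a change of 0.07 ± 0.10. The other Arrb2 probe set (1451987_at) gave 0.10 ± 0.14, and 0.02 ± 0.14 without untreated mouse 3. Groups overlapped at the Arrb1 probe set and at both of Arrb2, and limma's adjusted p was 0.967 for each. Whether the Arrb1 and Arrb2 changes differ from each other was not tested.

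Rgs2 gave the most marked differences of the 10 genes, and all 4 of its probe sets were on the higher side in NOX-A12 marrow. The fourth of them was too dim for a difference to be read. The probe sets measure the same gene in the same mice, so they are no independent measures. RGS2 acts chiefly on Gq proteins, and its gene is quickly induced by many stimuli. The brightest probe set (1419248_at) read 4132, 4054 and 3699 in NOX-A12 mice, against 4067, 3048 and 2414 in untreated mice. Untreated mouse 1 stood among the NOX-A12 mice, and the other untreated mice were below all of them. The change was 0.35 ± 0.18, with a 95% interval from -0.08 to 0.78.

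A second bright Rgs2 probe set (1419247_at) read 2648, 2941 and 2389 in NOX-A12 mice, against 2853, 1790 and 984 in untreated mice. It showed the same order of untreated mice and a change of 0.62 ± 0.34. The third (1447830_s_at) read 1512, 1258 and 1263 in NOX-A12 mice, against 1113, 794 and 825 in untreated mice, and here the groups did not overlap. Its means were 1344 ± 145 in NOX-A12 marrow and 911 ± 176 in untreated marrow (SD, n = 3 each), a change of 0.57 ± 0.15 with a 95% interval from 0.21 to 0.92. The fourth (1443250_at) was dim, at 12.6, 15.0 and 9.88 in NOX-A12 mice and 21.3, 3.59 and 4.40 in untreated mice, and its groups overlapped.

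None of the Rgs2 values passed the test: limma's adjusted p was 0.926 for the third probe set and 0.967 for the others. Its unadjusted limma p there was 0.0073, which ranked 348 of the 45037 probe sets. At all 4 probe sets, the size of the difference moved most when a single untreated mouse was left out. At the third it ran from 0.48 to 0.72 with a mouse left out. It was 0.72 without untreated mouse 1, and 0.48 without NOX-A12 mouse 1 or untreated mouse 2. Without untreated mouse 3 the changes were 0.17 ± 0.14, 0.23 ± 0.21, 0.50 ± 0.17 and 0.07 ± 0.27, from the brightest to the dimmest. Without untreated mouse 1 they were 0.54, 0.99, 0.72 and 0.51 in the same order, with an adjusted p of 0.62. The log2 difference of untreated mouse 3 from the median of the other arrays was -0.74, -1.41, -0.60 and -0.49 at these probe sets.

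**Figure D2:**
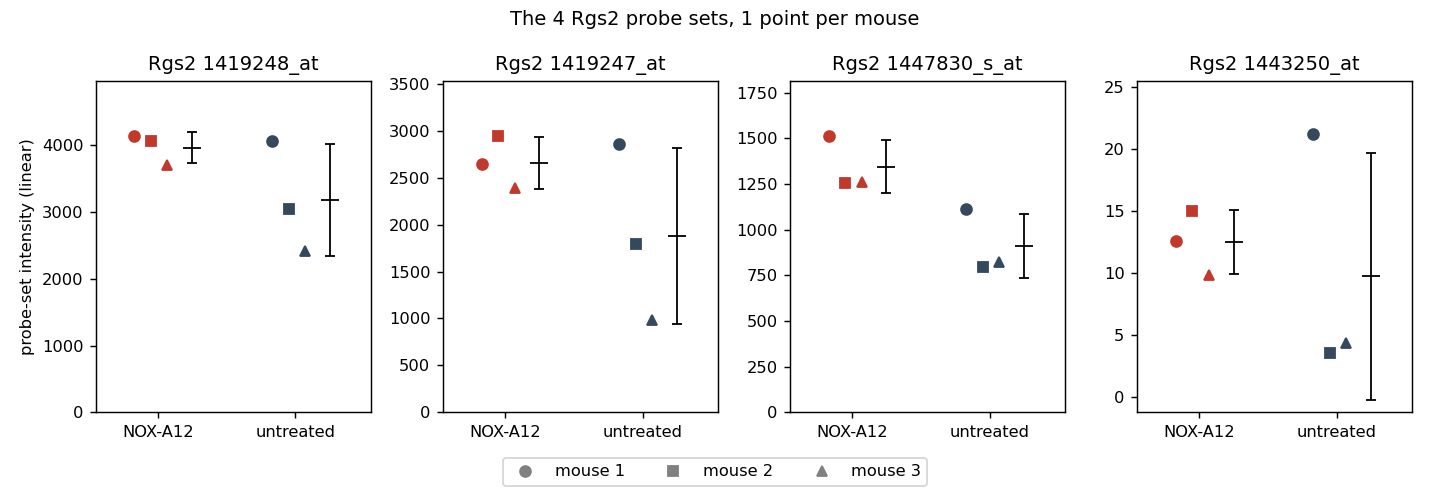
Intensity on a linear scale at each of the 4 Rgs2 probe sets, NOX-A12 mice left and untreated mice right, 1 point per mouse, with mean and SD (n = 3) beside the points. Untreated mouse 1 lies at the level of the NOX-A12 mice at the 2 brightest probe sets, and the groups are apart only at 1447830_s_at.

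Rgs1 was the only gene whose brightest probe set separated the groups, 1 of 10, where 10.6% of all genes had no overlap at theirs. RGS1 is best known from B lymphocytes, where it limits the response to chemokines. Its single probe set (1417601_at) read 110, 91.2 and 82.4 in NOX-A12 mice, against 112, 119 and 120 in untreated mice. Every NOX-A12 mouse was below every untreated mouse, although NOX-A12 mouse 1 missed the lowest untreated mouse by little. Means were 94.4 ± 13.9 in NOX-A12 marrow and 117 ± 4.45 in untreated marrow (SD, n = 3 each), a change of -0.28 ± 0.11 with a 95% interval from -0.54 to -0.01. Unadjusted limma p was 0.0448 and the adjusted p 0.967. The change was -0.26 ± 0.13 without untreated mouse 3, and between -0.37 and -0.20 over all 6 mice left out in turn.

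Markers of the B lineage were read beside Rgs1. All 7 measured B lineage markers gave lower values in NOX-A12 marrow, with 0 past the test, and their summed intensity was 2970 to 3942 in NOX-A12 mice and 4129 to 5177 in untreated mice. Within the groups the order of mice differed: Rgs1 was highest in NOX-A12 mouse 1, which had the lowest marker sum of its group, and lowest in untreated mouse 1, which had the highest. The transcription factor gene Pax5 was the only one of the 7 below the median intensity. The part of these cells in the Rgs1 value was not tested. In bulk marrow fewer cells of a type and less RNA per cell cannot be told apart, here and for every value below.

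Rgs10 and Rgs18 encode RGS proteins that are abundant in platelets. Rgs10 (1416882_at) read 1260, 1148 and 1229 in NOX-A12 mice, against 1137, 1323 and 1569 in untreated mice. The NOX-A12 values lay inside the untreated range, and the change was -0.13 ± 0.13, and -0.02 ± 0.11 without untreated mouse 3, the highest of the 6. Without untreated mouse 1 it was -0.25. Rgs18 at its brightest probe set (1420398_at) read 2218, 2630 and 2815 in NOX-A12 mice, against 2289, 2556 and 2036 in untreated mice. The groups overlapped, with a change of 0.15 ± 0.13, and 0.07 ± 0.13 without untreated mouse 3. The other Rgs18 probe set (1449856_at) read 1439, 1335 and 1674 in NOX-A12 mice, against 1211, 1681 and 1687 in untreated mice, and gave -0.03 ± 0.16. Summed intensity of 6 megakaryocyte and platelet markers overlapped too, at 12359 to 14301 in NOX-A12 mice and 11736 to 14703 in untreated mice.

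Rgs16, whose product limits chemokine signals in activated lymphocytes, was near background at all 3 probe sets. Its brightest (1451452_a_at) read 13.1, 3.12 and 7.08 in NOX-A12 mice, against 1.90, 12.5 and 11.8 in untreated mice. Mean intensity at the 3 probe sets lay at percentiles 18, 6.02 and 4.29 of all probe sets, so no difference could be read from it. The changes were -0.05 ± 0.22, -0.14 ± 0.11 and 0.10 ± 0.12.

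Several of the RGS genes are neighbours. In RefSeq's gene order for the mouse, Rgs2, Rgs13, Rgs1, Rgs21 and Rgs18 follow each other on chromosome 1 with no other protein-coding gene between them, and Rgs16 lies next to Rgs8 on the same chromosome. Within that row Rgs2 gave 0.35 ± 0.18, Rgs1 gave -0.28 ± 0.11 and Rgs18 gave 0.15 ± 0.13 at their brightest probe sets. Rgs13, a gene of germinal-centre B cells and mast cells, was near background at 5.10 ± 0.445 in NOX-A12 marrow and 7.02 ± 2.08 in untreated marrow (SD, n = 3 each). Rgs8 was dim too, with a change of -0.06 ± 0.10.

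Read over the 20 probe sets, 13 gave higher and 7 lower values in NOX-A12 marrow, with a median change of 0.06 beside a median of 0.00 over the whole array. At an adjusted limma p under 0.05, 0 of the 20 were called, as were 0 of all 45037 (0%). By an unadjusted limma p under 0.05, 2 of 20 were called, 1 higher (Rgs2) and 1 lower (Rgs1), where 4.97% of all probe sets were called, 1.88% as higher and 3.1% as lower. Groups did not overlap for the same probe sets, 2 of 20, beside 9.85% of all probe sets, 4% with NOX-A12 above and 5.85% with NOX-A12 below. At the brightest probe set of each gene, 5 genes were higher and 5 lower, with a median of -0.02 beside -0.01 over all genes. A count of 2 among 20 lies near these shares, and nothing was read from it about the members as a set. Of the 16 probe sets above the median intensity, 5 had a smaller ratio of highest to lowest array than the median ratio of 1.35 among all bright probe sets, those of Cxcr4 and the brightest of Gnai2, Arrb2 and Grk6 among them.

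**Figure D3:**
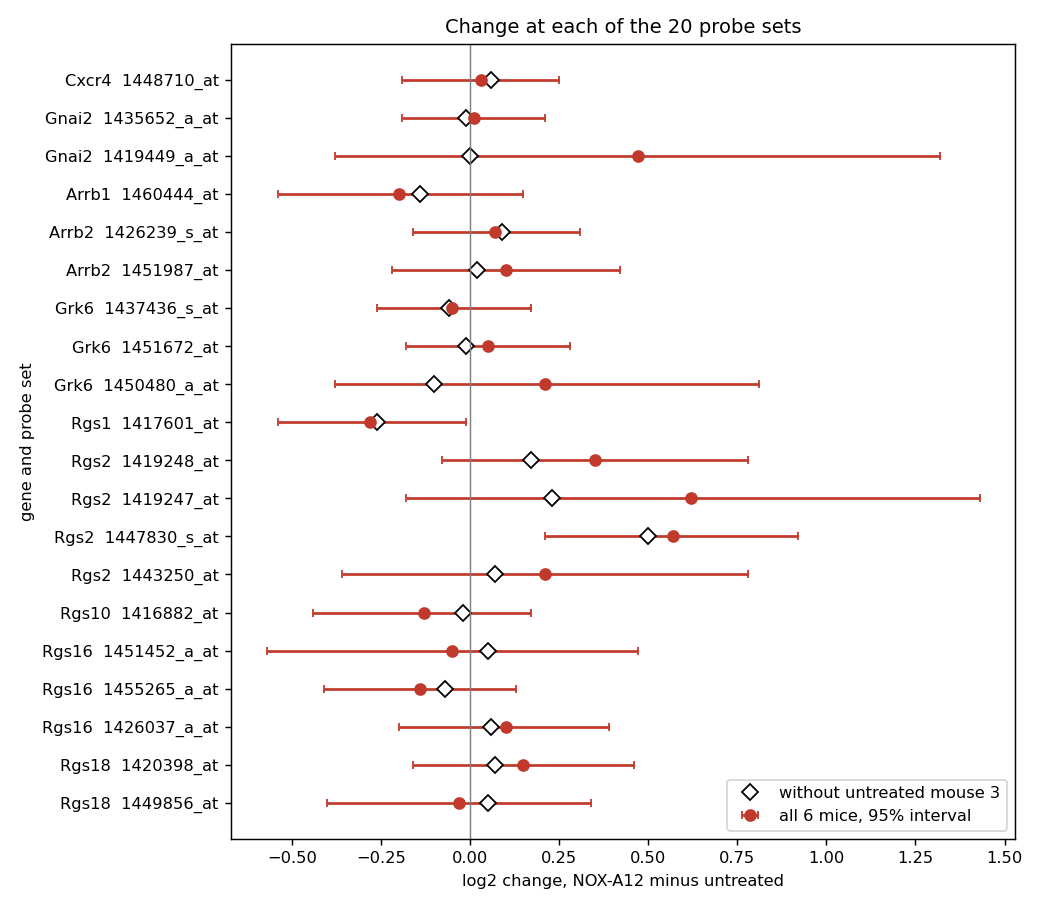
Log2 change (NOX-A12 minus untreated) at each of the 20 probe sets: red points with bars give the change with all 6 mice and its 95% interval, and open diamonds the change without untreated mouse 3. Intervals exclude 0 only for Rgs1 and for Rgs2 at 1447830_s_at, and the diamonds lie far from the points at the second Gnai2 and Rgs2 probe sets and the dimmest of Grk6.

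The rest of the pathway was read from 8 gene lists with 112 measured genes, each at its brightest probe set. None passed limma's test over all probe sets, and 56 were higher and 56 lower. By an unadjusted p under 0.05, 3 were called higher and 6 lower, where 5.29% of all genes were called, and the median of all genes was -0.01. Groups did not overlap for 6 genes with NOX-A12 above and 8 with NOX-A12 below, where 10.6% of all genes had no overlap. Nothing was read from these counts about the lists. From each list the genes with the smallest p are given.

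Upstream of the receptor, all 6 measured genes of the list of ligands and co-receptors gave lower values, with a median of -0.34. They were Cxcl12, Cd74, Mif, Cxcl14, Ackr3 and Dpp4, of which Dpp4 is neither a ligand nor a co-receptor gene. Mif was nearly level at -0.01 ± 0.10. Ackr3 was dim, with means of 12.2 in NOX-A12 marrow and 19.0 in untreated marrow. Groups overlapped for every gene of the list except Cxcl12 and Cd74. Cxcl12, the ligand itself, read 2951, 2580 and 3131 in NOX-A12 mice, against 3608, 3664 and 4098 in untreated mice, a change of -0.39 ± 0.11 (limma adjusted p = 0.926). Cd74, which serves as a partner of CXCR4 in binding the cytokine MIF and as the chaperone of class II molecules, read 244, 262 and 250 in NOX-A12 mice, against 350, 341 and 331 in untreated mice, a change of -0.41 ± 0.09 (limma adjusted p = 0.926). The groups did not overlap for either gene, and without untreated mouse 3 the changes were -0.34 ± 0.11 and -0.43 ± 0.09. All 8 stromal and endothelial markers, Cxcl12 among them, also gave lower values, with 0 past the test and 0 below the median intensity, and their summed intensity was 3848 to 4634 in NOX-A12 mice and 5171 to 6336 in untreated mice. Cxcl12 makes up most of that sum, and the other 7 markers, summed alone after the data were seen, gave 1268 to 1503 in NOX-A12 mice and 1562 to 2238 in untreated mice. The part of these cells in the Cxcl12 value was not tested.

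At the level of the G protein, 5 of 10 other alpha subunit genes were higher and 5 lower (median -0.03), and 6 of 16 beta and gamma subunit genes were higher and 10 lower (median -0.05). Gnai1, a close relative of Gnai2, gave -0.27 ± 0.13 (-0.16 ± 0.11 without untreated mouse 3), and Gnao1 gave -0.13 ± 0.10. Gnai3, the other relative expressed in leukocytes, gave 0.19 ± 0.16, and 0.00 ± 0.09 without untreated mouse 3. The subunit genes Gngt2 and Gnb4 gave -0.20 ± 0.09 and -0.26 ± 0.12, with every NOX-A12 mouse below every untreated mouse. The groups were also apart for Gng10, at a change of only -0.05 ± 0.08. Without untreated mouse 3, Gnb4 gave -0.15 ± 0.09.

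Among the other switches of the signal, Grk5, a kinase of the same subfamily as GRK6, read 236, 256 and 241 in NOX-A12 mice, against 190, 203 and 163 in untreated mice. The groups did not overlap, and the change was 0.37 ± 0.11 (limma adjusted p = 0.934), and 0.29 ± 0.09 without untreated mouse 3. Grk3 gave 0.00 ± 0.11, and Grk1, a kinase of the retina, was near background. No probe set named Grk2 alone, so that kinase gene was not read here. Of 14 other RGS genes 4 were higher and 10 lower, with a median of -0.06. Rgs4 read 30.5, 27.8 and 29.8 in NOX-A12 mice, against 40.9, 55.1 and 57.8 in untreated mice, a change of -0.56 ± 0.12 (limma adjusted p = 0.926). Without untreated mouse 3 the change was -0.49 ± 0.12. This Rgs4 probe set was dim, its mean intensity lying at percentile 47.8 of all probe sets. Rgs5, a gene of pericytes, gave -0.40 ± 0.16 with groups that overlapped. The stromal and endothelial markers named above were lower in the same mice, and their part in the Rgs4 and Rgs5 values was not tested.

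Downstream, 20 of 25 effector genes were higher, with a median of 0.09 that was 0.01 without untreated mouse 3. Pik3r5 and Pik3cd, which encode a regulatory and a catalytic subunit of the phosphoinositide 3-kinases of leukocytes, each gave 0.24 ± 0.10, with every NOX-A12 mouse above every untreated mouse. Rac2, a GTPase of neutrophil migration picked out here after its values were seen, gave 0.30 ± 0.28, and -0.05 ± 0.12 without untreated mouse 3, whose intensity of 1508 was the lowest of the 6. Of 19 genes of receptor endocytosis and sorting 10 were higher and 9 lower, with a median of 0.01. Vps4a, which helps send internalised receptors to the lysosome, and Rab7, a marker of late endosomes, gave 0.11 ± 0.10 and 0.17 ± 0.15. Without untreated mouse 3, Rab7 gave 0.01 ± 0.09.

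Other chemoattractant receptors that couple to the same G proteins gave 7 higher and 11 lower values, with a median of -0.07. Ccr9, a receptor of plasmacytoid dendritic cells and thymic progenitors, gave -0.39 ± 0.11, and Cxcr6 gave -0.33 ± 0.12, both with every NOX-A12 mouse below every untreated mouse. Limma's adjusted p was 0.926 for Ccr9 and 0.967 for Cxcr6. Cxcr2, which opposes CXCR4 in neutrophil release and was picked out here after its values were seen, read 1356, 1692 and 1029 in NOX-A12 mice, against 1594, 1269 and 483 in untreated mice. Its change was 0.42 ± 0.42, and -0.09 ± 0.22 without untreated mouse 3.

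**Figure D4:**
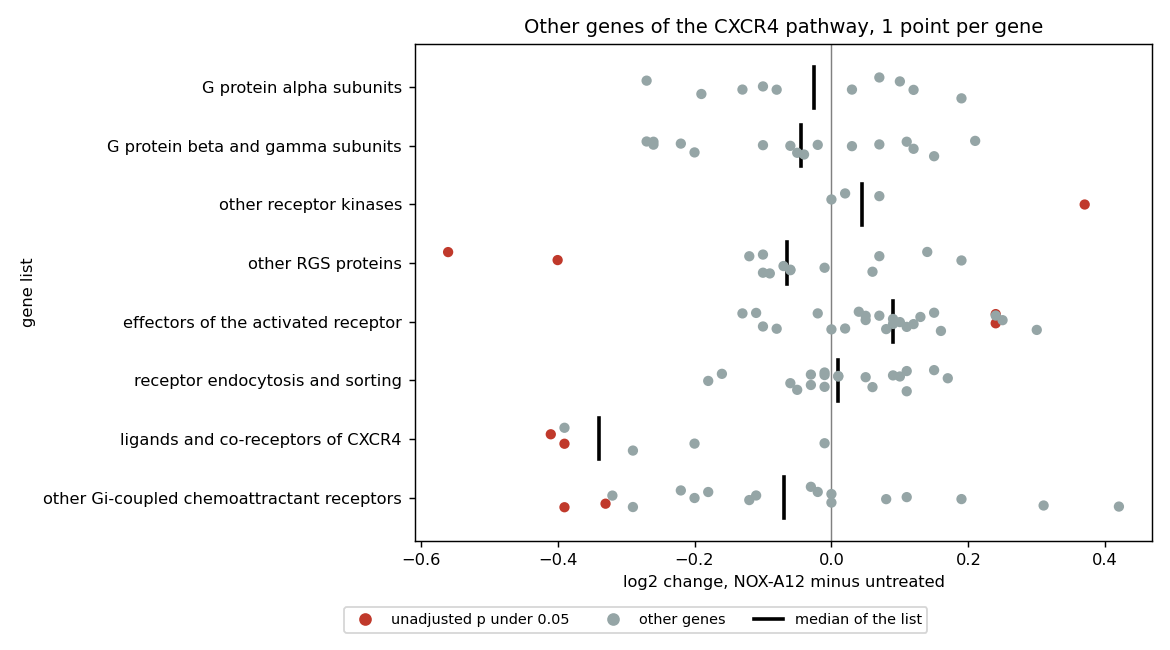
Log2 change (NOX-A12 minus untreated) of the other genes of the pathway in 8 lists, 1 point per gene at its brightest probe set, red where the unadjusted limma p was under 0.05, with a black bar at the median of each list. Genes of the ligand and co-receptor list lie below 0, Mif at only -0.01, and effectors lie mostly above 0. None of the genes passed after adjustment.

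The profile of Cxcr4 over the 6 arrays was most like those of Txndc11 (Pearson r of 0.99), Tsc22d3 (0.977) and Gpr65 (0.966), among 10998 genes above the median intensity. These are the highest of that many values over 6 arrays that share the same mice, so they describe the profiles and were not tested. Their changes were 0.06, 0.36 and 0.04 on the log2 scale, beside 0.03 for Cxcr4.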

How the data were processed

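Total RNA of whole bone marrow was labelled with biotin and hybridised to 1 array per mouse, per the labels' protocols. The values are the authors' deposited probe-set intensity values, linear and already summarised, and the sources used here do not give their software or normalization. The log2 medians of the arrays differed by at most 0.0193, so no scaling was added. Titles gave the group and the number of each mouse. The mice are numbered as separate animals, so the spread that enters the p-values is one between animals.

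Intensities were transformed to log2(intensity + 16) and tested in R 4.3.3 by lmFit and eBayes of limma 3.58.1, two-sided, on 6 arrays and without covariates. In eBayes the variance of each probe set is drawn towards a value common to all probe sets. SE, intervals and p-values therefore rest partly on that pooled variance. Benjamini-Hochberg adjustment ran over 45037 probe sets at a threshold of 0.05. The offset understates changes of dim probe sets. Names came from the platform's annotation, where 34945 probe sets had 1 symbol, 932 several and 9160 none listed. The brightest probe set stood for a gene. The fit was tested on simulated data. From each pathway list the 2 genes with the smallest p were named, with relatives of members. Members and lists were chosen with earlier results of these data known. Deviations of same-numbered mice from their group means correlated at -0.0895, 0.0528 and 0.0287. With so few mice such values cannot exclude a condition shared by same-numbered mice. The titles name no pairing, and the main fit used none. Alternatives were other normalizations, a filter on dim probe sets, offsets of 1 and 64, a variance trend, array weights, a replicate block, each mouse left out, and other probe sets.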

Additional observations from a re-analysis of the deposited data

How the results depend on the processing

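Calls over all probe sets stayed at 0 in the 14 alternative settings (in limma, lowest adjusted p from 0.0631 to 1), beside 2240 at an unadjusted p under 0.05. For the member genes, 142 of 155 recomputed changes kept their sign and 13 did not, each of these at most 0.21 in size, and none passed. Cxcr4 turned to -0.03 without untreated mouse 1, its range over mice left out being -0.03 to 0.06. Gnai2 turned to -0.01 with array weights and when NOX-A12 mouse 3 or untreated mouse 3 was left out (range -0.01 to 0.03). Grk6 turned to 0.07 as the mean of its probe sets, 0.01 without untreated mouse 2 (range with a mouse left out -0.09 to 0.01), and 0.21 and 0.05 at its other probe sets. With mice left out Rgs16 ranged from -0.27 to 0.10, being 0.10 without NOX-A12 mouse 2 and 0.07 and 0.05 without untreated mouse 2 or 3. Another of its probe sets also gave 0.10. Rgs18 turned to -0.03 at its other probe set. The causes were not tested.

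Member probe sets with an unadjusted limma p under 0.05 numbered 2 with all mice. They numbered 1 with an offset of 1, with quantile normalization, with a variance trend and with 1 probe set per gene. Without probe sets of the _x_at, _s_at and _a_at types the count was also 1. With a mouse left out they numbered from 1 to 4, being 1 without untreated mouse 3 or NOX-A12 mouse 3. Without untreated mouse 1 they numbered 4, where the share of all probe sets was 7.89%. All 4 were probe sets of Rgs2, so they stand for 1 gene, and 1 of them was dim. With the mouse number as a replicate block the count was 1, and the block changed no adjusted call. Member probe sets whose groups did not overlap numbered 2, then 1 with quantile normalization, with 1 probe set per gene and without those types. With a mouse left out they numbered from 2 to 9 (9 without untreated mouse 1, 6 without untreated mouse 2), where fewer mice also raised the share of all probe sets to 24.6% and 19.2%. The 9 included all 4 probe sets of Rgs2. Dim probe sets, those of Rgs16 and 1 of Rgs2, allow no reading of a difference.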
